A study of Homo sapiens with 12 samples.

Results

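The genes described here are those of NF-kB signalling with its chemokine and cytokine targets: the subunits of the transcription factor, its inhibitors and feedback genes, chemokines, cytokines and some of their receptors. The list held 45 genes, and every probe set of the array that is annotated to exactly 1 of them was taken. That gave 84 probe sets for 43 genes, out of 19775 genes with such a probe set. BIRC3 and CSF2 had none in the annotation used and are not analysed here. A gene was represented by its brightest probe set and was tested where that probe set exceeded 4 on the log2 scale in 3 or more of the 12 arrays, which 34 of the 43 genes did. The other 9 lay at the floor, the low level at which these arrays give no usable signal.

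RNA was hybridised to Affymetrix arrays from HK-2 cells, an immortalised epithelial line from human renal proximal tubule. The 4 groups of 3 arrays were cells given the vehicle for 24 h, cells given a low dose of Ota for 24 h, and the same pair at 72 h. The medium of all groups held the glucocorticoid hydrocortisone, insulin, transferrin, selenite and epidermal growth factor, and cells were exposed near confluence. The labels give neither the concentration nor the full name of Ota, and what was shared between the cultures they call biological replicates is unknown, so p-values measure only the spread between these samples. HK-2 is a single cell line, and the defining markers of the tubule were mostly missing from it. Of 13 named proximal tubule markers 1 (PDZK1) passed the filter, and LRP2, CUBN, AQP1 and SLC34A1 stayed below 4 on every array, whereas 8 of 9 epithelial markers passed.

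NF-kB is a family of dimeric transcription factors that inhibitor proteins of the IkB family hold in the cytoplasm. Signals from receptors for tumour necrosis factor, interleukin 1 or microbial products activate a kinase complex, the inhibitor is degraded, and the dimer enters the nucleus and binds short sites in its target genes. Some of the targets encode the inhibitors themselves, which closes a feedback loop, and others encode chemokines, cytokines and adhesion molecules. Renal tubular cells are known to make such chemokines when injured.

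The promoters of several members carry close matches to the site. Promoter windows of RefSeq (assembly GRCh38.p14, from 250 bases before to 50 bases after a start of transcription) were searched on both strands for GGNNNTTCC, a form of the NF-kB site in which N is any base, with overlapping matches merged. Of the 45 listed genes 35 had a window, and 23 of these (65.7%) held a match, against 6406 of 27305 genes in the table (23.5%) and 20.1% of 35116 windows. The list was put together from genes known for NF-kB, so this share describes the choice of genes. The sequences below are the upstream stretches of 5 genes that were higher in Ota cells at 72 h, given 5′ to 3′ on the strand of the gene with matches in capitals.
NFKBIA, chr14:35404750-35404999, minus strand: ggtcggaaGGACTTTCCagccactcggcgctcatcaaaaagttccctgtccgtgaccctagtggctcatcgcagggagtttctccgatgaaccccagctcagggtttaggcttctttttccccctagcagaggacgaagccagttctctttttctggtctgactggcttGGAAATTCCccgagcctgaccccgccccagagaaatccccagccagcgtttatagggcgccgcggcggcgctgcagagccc
ICAM1, chr19:10270920-10271019, plus strand: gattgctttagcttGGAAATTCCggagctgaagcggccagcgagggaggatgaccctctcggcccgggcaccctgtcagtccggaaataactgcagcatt
TNFAIP3, chr6:137867159-137867258, plus strand: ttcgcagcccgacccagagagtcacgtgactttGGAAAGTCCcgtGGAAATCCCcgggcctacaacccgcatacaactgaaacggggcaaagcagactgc
TNFAIP2, chr14:103123361-103123460, plus strand: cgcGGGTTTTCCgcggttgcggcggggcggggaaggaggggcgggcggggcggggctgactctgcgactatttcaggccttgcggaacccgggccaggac
NFKB1, chr4:102501259-102501358, plus strand: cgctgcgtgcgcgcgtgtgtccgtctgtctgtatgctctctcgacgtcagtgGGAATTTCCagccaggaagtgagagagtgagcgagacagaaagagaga

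The matches of TNFAIP3 are read on the other strand. Measured from the start of transcription, NFKBIA had matches beginning 242 and 81 bases upstream, TNFAIP3 67 and 55, ICAM1 186, TNFAIP2 97 and NFKB1 48. Of the members that rose at 72 h, 8 had a window and 5 of these held a match, and of the other members tested, 12 of 17 did. A match is a description of the letters and does not show that a factor was bound.

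The CXC chemokines of chromosome 4 are shown because their promoters resemble each other while only some of them were measurable or passed a test. CXCL1, CXCL2 and CXCL3 shared the same pair of matches, GGAATTTCC and GGGCTTTCC, at nearly the same distances. CXCL5, CXCL6 and CXCL8 shared a single GGAATTTCC that began 90, 89 and 91 bases before the start.
CXCL1, chr4:73869293-73869352, plus strand: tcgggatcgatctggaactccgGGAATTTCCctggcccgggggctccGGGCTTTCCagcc
CXCL2, chr4:74099236-74099295, minus strand: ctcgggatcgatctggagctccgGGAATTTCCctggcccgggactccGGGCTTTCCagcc
CXCL3, chr4:74038730-74038789, minus strand: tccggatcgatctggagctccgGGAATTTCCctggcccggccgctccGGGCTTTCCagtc
CXCL5, chr4:73998718-73998777, minus strand: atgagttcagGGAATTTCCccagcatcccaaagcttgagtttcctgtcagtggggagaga
CXCL6, chr4:73836578-73836637, plus strand: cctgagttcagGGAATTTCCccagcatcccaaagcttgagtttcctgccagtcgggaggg
CXCL8, chr4:73740469-73740528, plus strand: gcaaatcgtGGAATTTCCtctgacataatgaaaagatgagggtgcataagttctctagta

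At 72 h the inhibitor NFKBIA, the feedback gene TNFAIP3, TNFAIP2, TNFAIP8, the adhesion molecule ICAM1, the cytokine IL1B and SOD2 were higher in Ota cells, while the chemokine CXCL3 was lower. In all, 10 of the 34 members tested (29.4%) rose, beside 17.1% of all 10699 genes tested, and 1 (2.94%) fell, beside 14.9% of all genes. The median log2 change of the tested members was 0.21, against 0.01 over all genes. With quantile normalization repeated, 8 rose and 2 fell at 72 h, while the counts over all genes went from 1827 higher and 1594 lower to 1623 and 1930. At 24 h, 2 members (5.88%) rose, beside 9.44% of all genes, and 4 (11.8%) fell, beside 21.6%, with medians of -0.07 for the members and -0.06 for all genes. The members' shares at 24 h were below those of all genes in both directions. Counting members whose arrays did not overlap between groups, 12 were higher (beside 26% of all genes) and 3 lower (beside 25.3%) at 72 h, and 4 were higher (beside 15.4%) and 4 lower (beside 27.3%) at 24 h. Changes were called at an adjusted p below 0.05 in limma with Benjamini-Hochberg adjustment over all genes tested. Values below are log2 levels, errors of levels are standard deviations (SD, n = 3 arrays) and errors of changes are standard errors (SE) of the fit.

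**Figure D1:**
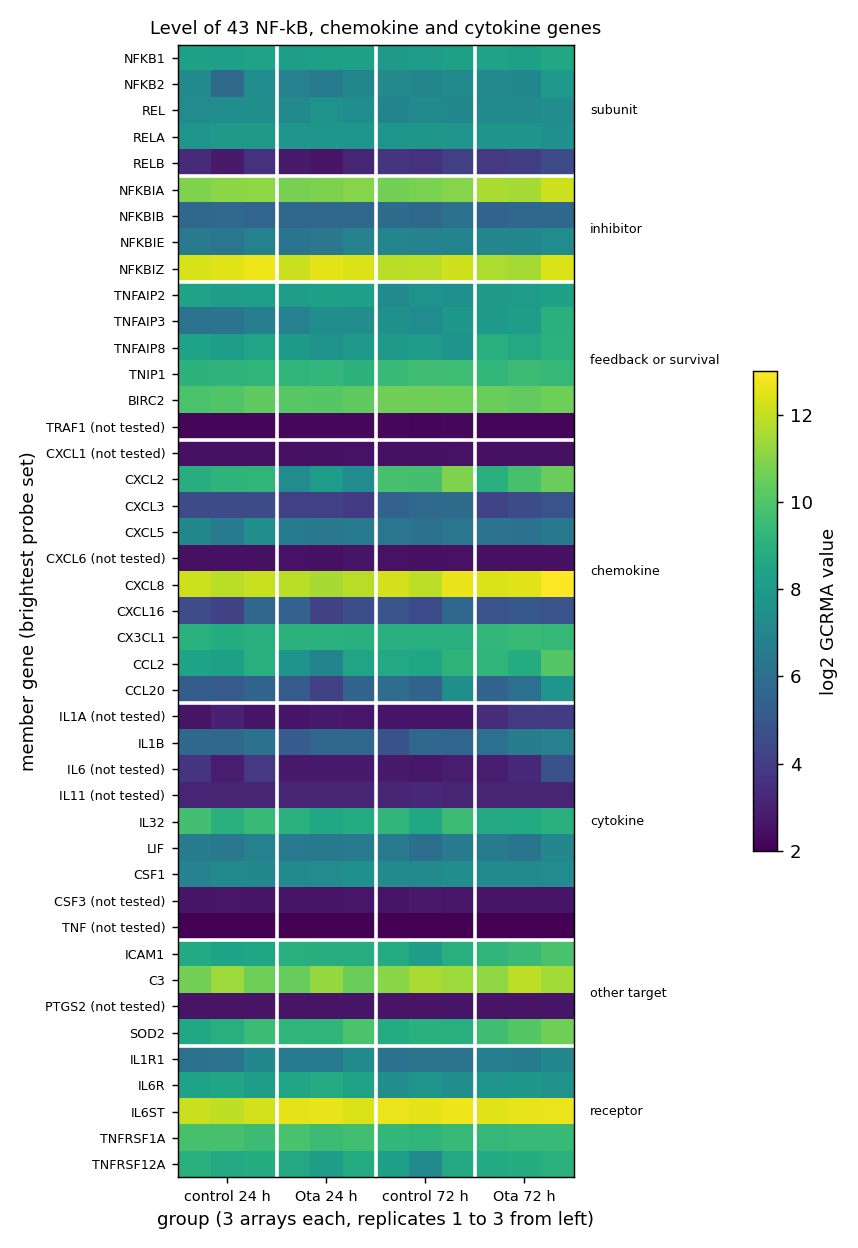
Log2 GCRMA level (colour) of the brightest probe set of each of the 43 genes (rows, ordered by role) on each of the 12 arrays (columns, 3 per group). The 9 genes at the floor keep one dark colour in most columns. IL1A is lighter in the Ota columns at 72 h, and IL6 is lightest in the column of Ota replicate 3 at 72 h.

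**Figure D2:**
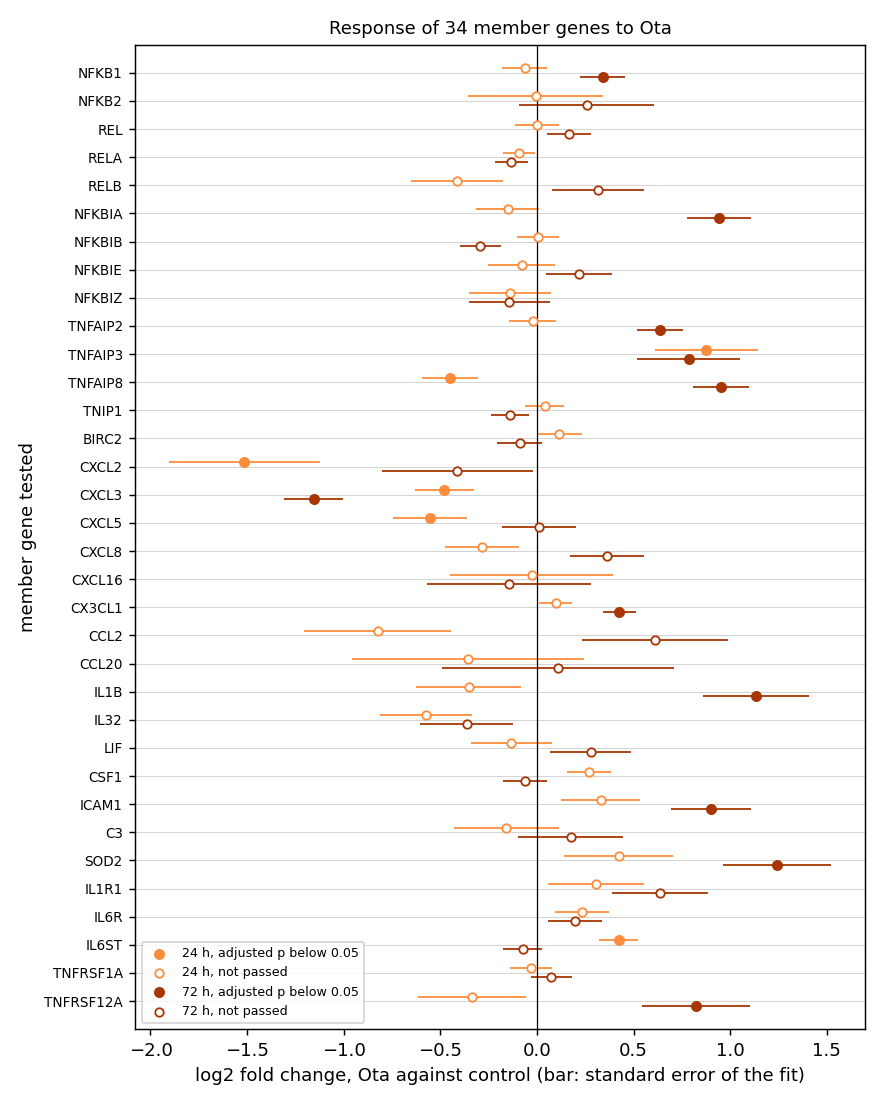
Log2 fold change of Ota against control for the 34 members tested (rows) at 24 h and 72 h; points are the fitted changes, filled where the adjusted p is below 0.05, and bars their standard errors. CXCL2 has the lowest value at 24 h (-1.52) and SOD2 the highest at 72 h (1.24).

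Among the 5 subunits of the factor only NFKB1 passed the test, and only at 72 h. NFKB1, which encodes a precursor that is processed to a DNA-binding subunit, read 7.89, 8.06 and 8.26 in control cells at 72 h and 8.36, 8.27 and 8.60 in Ota cells. All Ota arrays were above all control arrays, by a narrow margin, and the change was 0.34 ± 0.12 (adjusted p = 0.0432). At 24 h the same probe set read 8.28, 8.22 and 8.40 in control cells and 8.18, 8.23 and 8.30 in Ota cells, and these overlapped. NFKB1 missed the threshold when any of 8 of the 12 arrays was left out (adjusted p from 0.0523 to 0.163). The 4 arrays that could be left out without losing it were control replicates 2 and 3 at 24 h, control replicate 3 at 72 h and Ota replicate 2 at 72 h.

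RELA, the subunit that carries the activation domain in the most common dimer, averaged 7.77 ± 0.03 in control cells at 72 h and 7.64 ± 0.10 in Ota cells, a difference of -0.13 ± 0.08 that did not pass (adjusted p = 0.264). REL, the lymphoid-type subunit, had 0.16 ± 0.11 at 72 h and 0.00 ± 0.11 at 24 h. NFKB2, the precursor used in the non-canonical pathway, spread widely in control cells at 24 h (SD 0.85) and had 0.26 ± 0.35 at 72 h. RELB, its usual partner and itself a target, was near the floor, and it read above 4 only on 1 control and 2 Ota arrays at 72 h. RELB is thus a member that passed the filter through its 72 h arrays alone, with 0.32 ± 0.24 at 72 h.

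Of the 4 inhibitors tested NFKBIA rose at 72 h and the other 3 did not pass. NFKBIA, which encodes the main cytoplasmic inhibitor and is a classical NF-kB target, read 10.68, 10.77 and 11.01 in control cells and 11.60, 11.52 and 12.18 in Ota cells at 72 h. The groups were well separated, and the change of 0.94 ± 0.17 is 1.92-fold (adjusted p = 0.0014). At 24 h NFKBIA read 10.87, 11.07 and 11.13 in control cells and 10.76, 10.85 and 11.00 in Ota cells. Those values overlapped, with a change of -0.15 ± 0.17 (adjusted p = 0.533). NFKBIB, a related inhibitor, had -0.29 ± 0.11 at 72 h (adjusted p = 0.0576). NFKBIE, another inhibitor that NF-kB induces, had 0.22 ± 0.17, and NFKBIZ, a nuclear family member that acts as a co-regulator, had -0.14 ± 0.21.

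The genes of feedback and survival held 3 of the 10 rises at 72 h, out of 5 tested, beside 17.1% of all genes that rose. A group of 5 is too small for a share to be read from it. TNFAIP8, an apoptosis-related gene that tumour necrosis factor induces, read 7.92, 8.05 and 7.71 in control cells and 8.88, 8.64 and 9.03 in Ota cells at 72 h. It was 1.94-fold higher, by 0.96 ± 0.14 (adjusted p = 0.00059). At 24 h TNFAIP8 lay on the other side: it read 8.36, 8.14 and 8.42 in control cells and 8.01, 7.60 and 7.97 in Ota cells, a fall of 0.45 ± 0.14 on the log2 scale (adjusted p = 0.0349). That early fall missed the threshold without control replicate 1 (adjusted p = 0.0951), control replicate 3 (0.0966) or Ota replicate 2 (0.139) at 24 h. Averaged over all its probe sets the change was -0.30 (adjusted p = 0.0688), but not all of these passed the filter, which shrinks the average.

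TNFAIP2, another gene named for its induction by tumour necrosis factor, read 7.24, 7.60 and 7.54 in control cells and 7.96, 8.04 and 8.29 in Ota cells at 72 h, a rise of 0.64 ± 0.12 (adjusted p = 0.0022). At 24 h the arrays read 8.33, 8.13 and 8.23 in control and 8.10, 8.29 and 8.23 in Ota cells, which overlapped. Its level in control cells fell by 0.77 ± 0.12 from 24 h to 72 h (adjusted p = 0.00034), and in Ota cells the change over that time was -0.11 ± 0.12 (adjusted p = 0.518). The higher level in Ota cells at 72 h was therefore near the level of both groups at 24 h.

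TNFAIP3, a ubiquitin-editing enzyme that switches off NF-kB signalling, was the single member higher in Ota cells at both times. It read 6.21, 6.21 and 6.68 in control cells and 6.83, 7.49 and 7.41 in Ota cells at 24 h, a change of 0.88 ± 0.27 (adjusted p = 0.0277). At 72 h it read 7.52, 7.36 and 7.86 in control cells and 7.97, 8.14 and 8.99 in Ota cells, a change of 0.78 ± 0.27 (adjusted p = 0.0437). The groups did not overlap at either time, and the level also rose from 24 h to 72 h in control cells, by 1.21 ± 0.27 (adjusted p = 0.0031). Both calls were close to the threshold. The call at 24 h was lost without control replicate 1 or 2 or Ota replicate 2 or 3 at 24 h (adjusted p from 0.0787 to 0.0996). The call at 72 h was lost without Ota replicate 3 at 72 h, where the change was 0.47 (adjusted p = 0.157), and without Ota replicate 2 or control replicates 1 or 2 at 72 h, control replicates 1 or 2 at 24 h or Ota replicate 3 at 24 h (adjusted p from 0.0504 to 0.128).

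TNIP1, the partner of that enzyme, and BIRC2, a ubiquitin ligase that restrains cell death, had changes of -0.14 ± 0.10 and -0.09 ± 0.12 at 72 h and did not pass. TRAF1, a signalling adaptor, lay at the floor, with no array above 2.25.

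ICAM1 and SOD2, further targets, were higher at 72 h. ICAM1, the adhesion molecule that leukocytes bind, read 8.78, 8.13 and 8.94 in control cells and 9.19, 9.51 and 9.85 in Ota cells at 72 h, a rise of 0.90 ± 0.21 (adjusted p = 0.0067). At 24 h it read 8.71, 8.38 and 8.48 in control and 8.88, 8.84 and 8.85 in Ota cells. The groups did not overlap at either time, though the change of 0.33 ± 0.21 at 24 h did not pass (adjusted p = 0.258). SOD2, the mitochondrial superoxide dismutase, read 8.78, 8.98 and 8.89 in control cells and 9.64, 10.11 and 10.62 in Ota cells at 72 h, a rise of 1.24 ± 0.28 or 2.37-fold (adjusted p = 0.0063). At 24 h SOD2 read 8.60, 8.92 and 9.55 in control cells and 9.23, 9.21 and 9.89 in Ota cells, and the groups overlapped. It was read from its only probe set with 1 symbol. A further 4 probe sets carry SOD2 together with other symbols and were not used. C3, the central complement component, had 0.18 ± 0.27 at 72 h, and PTGS2, the inducible cyclooxygenase, lay at the floor.

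The chemokines did not move as a block. Of 8 tested, 3 fell at 24 h, beside 21.6% of all genes, and the other 5 did not pass. At 72 h CX3CL1 rose and CXCL3 fell, beside 17.1% and 14.9% of all genes. CXCL2, a neutrophil attractant, read 8.87, 9.15 and 9.20 in control cells and 7.31, 8.05 and 7.31 in Ota cells at 24 h. That fall of 1.52 ± 0.39 on the log2 scale was the largest of any member, to 0.35 of the control level (adjusted p = 0.0121, or 0.0506 without a filter on low genes). It rests on a single probe set that may also read related transcripts, and the other CXCL2 probe sets stayed below 4 on every array. At 72 h CXCL2 read 9.80, 9.76 and 10.86 in control cells and 8.89, 9.78 and 10.50 in Ota cells, and the groups overlapped.

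CXCL3, a close relative of CXCL2, was the single member lower at both times. It read 4.51, 4.51 and 4.52 in control cells and 4.07, 4.18 and 3.86 in Ota cells at 24 h, a fall of 0.48 ± 0.15 (adjusted p = 0.0342), which missed the threshold without any 1 control array or without Ota replicate 1 or 3 at 24 h (adjusted p from 0.0685 to 0.111). At 72 h it read 5.46, 5.77 and 5.88 in control cells and 4.27, 4.51 and 4.87 in Ota cells, a fall of 1.15 ± 0.15 (adjusted p = 0.00025). The groups were apart at both times. These levels are close to the floor of 4, which compresses differences, and the call at 72 h is not made when genes must reach 6 to be tested.

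CXCL5, which attracts the same cells, read 7.13, 6.56 and 7.48 in control cells and 6.52, 6.40 and 6.58 in Ota cells at 24 h. The groups overlapped slightly, and the adjusted p of 0.0461 for a change of -0.56 ± 0.19 is the highest among the calls of Ota against control: it was lost when any array except control replicate 2 at 24 h was left out (adjusted p from 0.0512 to 0.15), with a change of -0.34 without control replicate 3. Averaged over its probe sets CXCL5 had -0.21 (adjusted p = 0.17). All but the brightest of these lay at the floor, which shrinks the average, so it does not bear on the call. At 72 h CXCL5 read 6.30, 6.08 and 6.32 in control and 6.20, 6.10 and 6.44 in Ota cells. CXCL8, also called interleukin 8, read 12.31, 11.91 and 12.62 in control cells and 12.40, 12.52 and 13.01 in Ota cells at 72 h, and the change of 0.36 ± 0.19 did not pass (adjusted p = 0.177).

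CX3CL1, a chemokine made as a membrane-bound adhesion protein, read 8.89, 8.95 and 8.96 in control cells and 9.29, 9.46 and 9.33 in Ota cells at 72 h. The groups were clearly apart, with a rise of 0.43 ± 0.08 (adjusted p = 0.0029). At 24 h CX3CL1 read 9.03, 8.80 and 8.96 in control and 9.06, 9.02 and 9.00 in Ota cells, a change of 0.10 ± 0.08 that did not pass.

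CCL2, the main attractant of monocytes, read 8.39, 8.25 and 8.91 in control cells and 7.67, 6.98 and 8.43 in Ota cells at 24 h. Its arrays at 72 h read 8.62, 8.52 and 9.14 in control cells and 9.22, 8.81 and 10.09 in Ota cells. The groups overlapped at both times. The changes of -0.82 ± 0.38 and 0.61 ± 0.38 did not pass (adjusted p = 0.125 and 0.248), although the Ota array was the lower in each of the 3 replicate numbers at 24 h and the higher in each at 72 h. CCL20, a chemokine of lymphocytes and dendritic cells, varied too much between arrays to show a change, with an SD of 1.17 in Ota cells at 72 h, and had 0.11 ± 0.60 there. CXCL16 had -0.14 ± 0.42 at 72 h.

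In 24 h cultures the replicate numbers paired the arrays, and a fit with the number as a block called 3 members higher (8.82%, beside 11.4% of all genes in that fit) and 7 lower (20.6%, beside 24.2%). This fit added CCL2 (adjusted p = 0.0033), IL32, a cytokine (0.0269), and RELB to the falls, and IL6R, the interleukin 6 receptor (0.041), to the rises. A block fit of the 24 h arrays alone also added CCL2 (0.0241), IL32 (0.0134) and RELB (0.0407) to the falls. It further added CXCL8 to the falls (0.0435) and SOD2 to the rises (0.0347), lost CXCL5 (0.0559) and did not add IL6R. RELB was below 4 on all 6 arrays at 24 h, so its fall rests on levels without usable signal. Shifting each array to a common median left 1 of the 4 falls at 24 h and called 3 rises. That shift moved the median change of all genes by 0.12 at 24 h and turned the split of all genes called higher and lower there from 1010 and 2307 to 1881 and 1697.

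**Figure D3:**
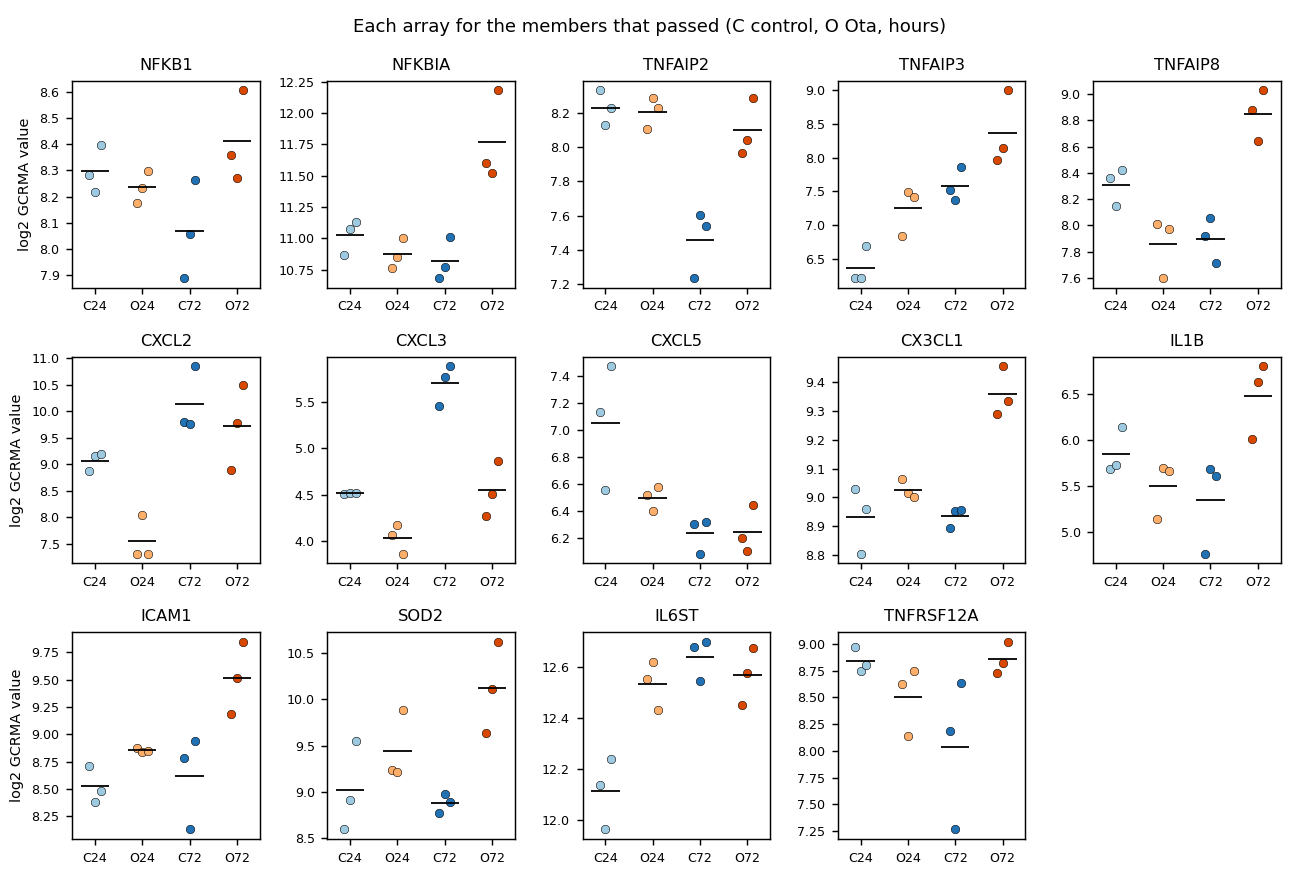
Log2 GCRMA value (vertical axis) of each array for the 14 members that passed at 24 h or 72 h, 1 panel per gene, with control (C) and Ota (O) cells at 24 h and 72 h along the horizontal axis; each point is an array. NFKBIA, TNFAIP8 and SOD2 have their highest group in Ota cells at 72 h, and CXCL2 its lowest in Ota cells at 24 h.

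Among the cytokines IL1B passed, and most others lay at the floor or did not pass. IL1B, a principal inflammatory cytokine, read 4.76, 5.68 and 5.60 in control cells and 6.01, 6.63 and 6.81 in Ota cells at 72 h. The groups were apart, and the rise of 1.13 ± 0.27 is 2.19-fold (adjusted p = 0.0088). At 24 h IL1B read 5.68, 5.73 and 6.15 in control cells and 5.14, 5.69 and 5.66 in Ota cells, which overlapped (-0.35 ± 0.27, adjusted p = 0.365). IL32 had -0.58 ± 0.24 at 24 h and -0.36 ± 0.24 at 72 h. LIF, a cytokine of the interleukin 6 family, had 0.28 ± 0.21 at 72 h, and CSF1, the macrophage growth factor, had 0.27 ± 0.11 at 24 h and -0.06 ± 0.11 at 72 h.

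IL1A, the sister cytokine of IL1B, stayed below 4 on all arrays and was not tested. It read 2.62, 2.61 and 2.64 in control cells and 3.39, 3.87 and 3.97 in Ota cells at 72 h, and the highest of the 6 arrays at 24 h was 3.02. The 3 Ota arrays at 72 h were thus the highest of the 12, at a level where the size of a change is uncertain. The other IL1A probe set did not follow: it read 2.33, 2.36 and 2.48 in Ota cells at 72 h, and its highest arrays were controls at 24 h (3.25 and 2.83). IL6, also below the filter, read 2.85, 3.25 and 4.74 in Ota cells and 2.79, 2.71 and 2.82 in control cells at 72 h, while its control arrays at 24 h read 3.65, 2.84 and 3.82. For IL6 1 Ota array at 72 h was above 4, and no group was consistently high. CXCL1, CXCL6, IL11, CSF3 and TNF were flat at the floor, with their highest arrays at 2.53, 2.61, 3.20, 2.76 and 1.91.

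Of the 5 receptors 1 passed at each time. IL6ST, the signal-transducing receptor shared by interleukin 6, LIF and related cytokines, read 12.14, 11.96 and 12.24 in control cells and 12.55, 12.62 and 12.43 in Ota cells at 24 h. The groups were apart, with a rise of 0.42 ± 0.10 (adjusted p = 0.0075). Averaged over all its probe sets, some of them at the floor, the change was 0.28 (adjusted p = 0.051). At 72 h IL6ST read 12.68, 12.54 and 12.70 in control and 12.45, 12.58 and 12.67 in Ota cells, and these overlapped. The control cells had themselves risen over time, by 0.53 ± 0.10 (adjusted p = 0.0012).

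TNFRSF12A, the receptor of the cytokine TWEAK, read 8.19, 7.27 and 8.64 in control cells and 8.72, 8.82 and 9.02 in Ota cells at 72 h, a change of 0.82 ± 0.28 (adjusted p = 0.043). The groups did not overlap, but control replicate 2 was far below the rest, and without it the change was 0.44 (adjusted p = 0.115). The call was lost in 9 of the 12 fits that leave out an array (adjusted p from 0.052 to 0.124), the exceptions being control replicate 3 at 72 h and Ota replicates 2 and 3 at 24 h. At 24 h TNFRSF12A read 8.97, 8.74 and 8.80 in control and 8.62, 8.14 and 8.75 in Ota cells. IL1R1, the receptor of interleukin 1, had 0.64 ± 0.25 at 72 h (adjusted p = 0.072), and TNFRSF1A, the main receptor of tumour necrosis factor, had 0.07 ± 0.11. IL6R had 0.20 ± 0.14 at 72 h.

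The responses at both times were compared directly as the response at 72 h minus that at 24 h. The difference was positive for 4 members (11.8%, beside 15.5% of all genes): IL1B with 1.49 ± 0.39 (adjusted p = 0.0197), TNFAIP8 with 1.40 ± 0.20 (0.0012), NFKBIA with 1.10 ± 0.23 (0.0081) and TNFAIP2 with 0.66 ± 0.17 (0.0192). It was negative for 2 (5.88%, beside 5.79%): CXCL3 with -0.68 ± 0.22 (0.0461) and IL6ST with -0.50 ± 0.14 (0.0285). Without a filter IL1B missed the threshold (0.0663), and with a common median TNFAIP2 did (0.0553). The call of CXCL3 was lost in 9 of the 12 fits without an array (adjusted p from 0.0681 to 0.107), and that of IL6ST in 6 (from 0.0502 to 0.0739) and with the average of probe sets (-0.24, 0.252). For ICAM1, SOD2 and TNFRSF12A, which passed only at 72 h, the difference itself did not pass (adjusted p = 0.188, 0.168 and 0.0579). With the replicate block it passed for SOD2 (0.0316) and TNFRSF12A (0.0231), and for TNFRSF12A also with the filter at 6 (0.0484) and a variance trend (0.047). For ICAM1 it passed in no alternative. The block called 10 differences positive (29.4%, beside 18.8% of all genes), CCL2 (0.0024) among them. The block uses the replicate numbers at 72 h too, where they were not taken as pairing, so these calls depend on that choice.

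Without Ota, 6 members (17.6%, beside 22.7% of all genes) rose and 6 (17.6%, beside 23.6%) fell from 24 h to 72 h. The rises were TNFAIP3, TNIP1, BIRC2, CXCL2, CXCL3 and IL6ST, and the largest were TNFAIP3 at 1.21 and CXCL3 at 1.19 ± 0.15 (adjusted p = 8.8e-05). The falls were TNFAIP2, TNFAIP8, CXCL5, IL6R, TNFRSF1A and TNFRSF12A, among them IL6R, which fell by 0.78 ± 0.14 (adjusted p = 0.0008). Leaving out single arrays ended the calls of CXCL2 (7 of 12 arrays), TNFRSF12A (5) and TNFAIP8 (4), with adjusted p from 0.0505 to 0.172. In Ota cells 13 (38.2%, beside 22.2% of all genes) rose over the same time and 1 (2.94%, beside 9.99%) fell. The largest rises there were CXCL2 at 2.17 ± 0.39 (adjusted p = 0.002) and CCL2 at 1.68 ± 0.38 (0.0067), and IL6R was the gene that fell, by 0.82 ± 0.14 (0.0014). RELB is counted among the 13, but it lay below 4 on all 6 arrays at 24 h and entered the test through 72 h arrays alone, so its call is no support and its size is uncertain. These changes use the same arrays as the comparisons at each time and give no separate evidence. With a common median 9 members rose (26.5%, beside 15.6% of all genes) and 4 fell (11.8%, beside 18.7%). Without Ota replicate 2 or 3 at 72 h, 8 members rose in Ota cells. Over all genes 1703 to 2527 rose in the fits that leave out an array, against 2378 with all arrays. In both fits that gave 8 rises C3, CXCL3, ICAM1 and IL1B missed the threshold, and RELB dropped out because it then exceeded 4 on too few arrays to be tested.

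Of the 84 probe sets 32 (38.1%) lay at the floor, beside 52.6% of all 41091 probe sets with 1 symbol, and 26 were below 4 on all 12 arrays. In a fit of the 52 others among all 19460 such probe sets tested, 14 were higher at 72 h (26.9%, beside 16.8%) and 1 lower (1.92%, beside 12.3%). At 24 h 3 were higher (5.77%, beside 12.3%) and 5 lower (9.62%, beside 19%). All 3 probe sets of ICAM1 were higher at 72 h, with changes of 0.90, 0.91 and 0.75. Both of IL1B were (1.13 and 1.29), as were both of TNFAIP8 that were tested (0.96 and 0.70) and both of TNFAIP3 (0.78 and 1.36). For CX3CL1 the second probe set had 0.26 ± 0.09 and did not pass (adjusted p = 0.054).

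Other genes were read less evenly by their probe sets. At 24 h TNFAIP3 had 0.88 from one probe set and 0.44 from the other, of which the second did not pass (adjusted p = 0.14). For REL a second probe set had -0.50 ± 0.17 at 24 h (adjusted p = 0.0384), where the brightest had 0.00. IL6ST passed at 24 h on 2 of its 5 probe sets tested, with 0.84 and 0.42, and the others had 0.14 to 0.27. The levels of CXCL2, CXCL5, CXCL8 and NFKBIB came from probe sets that may cross-hybridise, since some of their probes fit related transcripts. For CXCL2 and CXCL5 the 2 other probe sets each did not pass the filter. The second probe set of CXCL8 had 0.69 ± 0.30 at 72 h and did not pass the test (adjusted p = 0.104). Of the 34 members tested 17 were read from probe sets whose probes can match several transcripts.

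**Figure D4:**
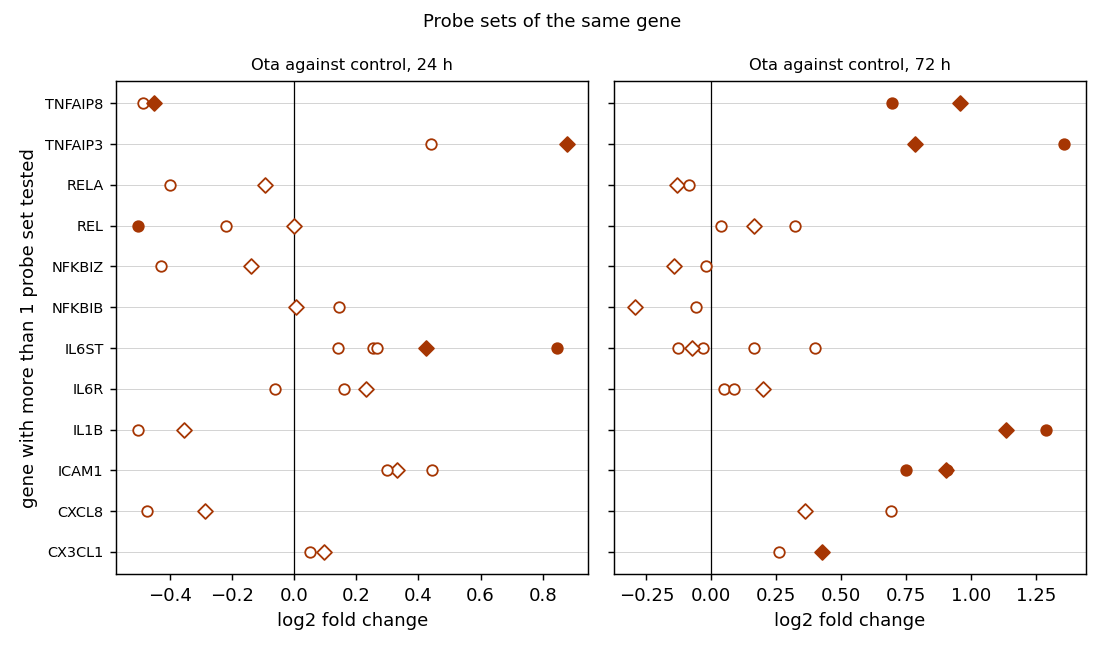
Log2 fold change of Ota against control (horizontal axes; left 24 h, right 72 h) for the 30 probe sets of the 12 members with more than 1 probe set tested (rows); each point is a probe set. The 3 of ICAM1 and both of IL1B lie to the right of 0 at 72 h, and those of REL are spread at 24 h.

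The third replicate tended to read highest for these genes. In Ota cells at 72 h replicate 3 was the highest array for 27 of 34 members (79.4%), beside 27% of all genes tested. In control cells it was the highest for 22 members at 24 h (64.7%, beside 45.9%) and for 22 at 72 h (64.7%, beside 32.8%), and in Ota cells at 24 h for 15 (44.1%, beside 39.9%). CCL2, CCL20, CXCL5, LIF, NFKB1, NFKB2, NFKBIA and RELB had replicate 3 highest in all 4 groups, which is 23.5% of the members, beside 4.98% of all genes. What set replicate 3 apart was not tested. Without Ota replicate 3 at 72 h, 7 members rose at 72 h, and those that no longer passed were NFKB1, TNFAIP3 and TNFRSF12A. Over all genes 1271 to 1969 rose at 72 h in the fits that leave out an array, against 1827 with all arrays.

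Markers of other cell types give the setting of these values. Of 10 named leukocyte markers none passed the filter, PTPRC and CD14 stayed below 4 on every array, and the summed level of the list was 5.82 to 5.87 in both groups at 72 h. At 24 h it was 5.82 to 5.87 in control and 5.91 to 6.50 in Ota cells, and FCER1G reached 5.30 on 1 Ota array, with a mean of 3.85 ± 1.34 against 2.51 ± 0.00 in control cells; it was the single marker of the list above 4 on any array. Of 10 endothelial markers 1 (ESAM) passed the filter, and its changes did not pass the test. Of 10 fibroblast markers COL1A1, DCN and LUM passed, and DCN and LUM were higher in Ota cells at 72 h, with the summed level of the list at 10.2 to 10.7 in control and 11.2 to 11.7 in Ota cells. At 24 h that level was 11.8 to 12.3 in both groups, so it was lower at 72 h in both and lowest in control cells. PDZK1 was also higher at 72 h, and of 8 epithelial markers tested 3 were lower at 72 h and 2 at 24 h. In RNA from whole cultures, fewer cells of a type and less RNA per cell cannot be told apart, and the part of these markers in the members' changes was not tested. The log2 difference between 3′ and 5′ actin probe sets, a sign of RNA quality, was 0.89 to 1.33 over the 12 arrays, and arrays of a group correlated at 0.986 to 0.994 across the genes tested.

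Upstream of the factor, the kinases, adaptors and ubiquitin enzymes of the pathway changed in both directions. At 24 h 6 of 35 tested rose (17.1%, beside 9.44% of all genes) and 12 fell (34.3%, beside 21.6%). At 72 h 4 rose (11.4%, beside 17.1%) and 5 fell (14.3%, beside 14.9%), shares no higher than those of all genes. RBCK1, a subunit of the complex that builds linear ubiquitin chains, fell by 1.16 ± 0.08 on the log2 scale at 24 h (adjusted p = 2.9e-06) and by 1.80 ± 0.08 at 72 h (adjusted p = 3e-07). COMMD1, which promotes the degradation of RELA, fell by 1.07 ± 0.12 and 0.58 ± 0.12. TOLLIP, an adaptor that restrains interleukin 1 signalling, fell by 0.76 ± 0.10 at 24 h on its brightest probe set, but averaged over its probe sets the change was 0.00 (adjusted p = 0.995). OTUD7B, a deubiquitinase of the pathway, fell by 0.52 ± 0.09 at 72 h, and its change at 24 h was -0.59.

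Of 20 cytokine, chemokine and toll-like receptors tested outside the members, 4 rose (20%, beside 9.44% of all genes) and 1 fell (5%, beside 21.6%) at 24 h. At 72 h 3 rose (15%, beside 17.1%) and 2 fell (10%, beside 14.9%). LTBR, the lymphotoxin receptor of the non-canonical pathway, fell by 0.95 ± 0.16 at 24 h, when IL17RA, a receptor of interleukin 17, rose by 0.73 ± 0.16 and IFNAR1, an interferon receptor, by 0.46 ± 0.14. The rise of IFNAR1 at 24 h was lost without any of 3 single arrays (adjusted p from 0.0926 to 0.118), without a filter (0.0732), in a fit of the compared groups alone (0.116), and with the average of its probe sets, which had 0.13 (0.552). IFNAR1 was also called higher at 72 h, with 0.43. That call was lost without any of 7 single arrays (adjusted p from 0.0513 to 0.129) and with the average of its probe sets (0.12, 0.549). At 72 h OSMR, a receptor that pairs with IL6ST, rose by 0.82 ± 0.10, IL13RA1 rose by 0.40 ± 0.12, and TLR3, the receptor for double-stranded RNA, fell by 1.02 ± 0.26. Averaged over its probe sets TLR3 had -0.40 and did not pass (adjusted p = 0.173), and IL13RA1 was lost without any of 4 single arrays (from 0.0671 to 0.0838).

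In the JAK-STAT pathway that IL6ST feeds, 4 of 15 genes rose (26.7%, beside 9.44% of all genes) and 2 fell (13.3%, beside 21.6%) at 24 h. At 72 h 1 rose and 1 fell (6.67% each, beside 17.1% and 14.9%). STAT3, the transcription factor most used by that receptor, rose by 0.47 ± 0.10 at 72 h, and JAK1, one of its kinases, fell by 0.35 ± 0.11. STAT3 was also called higher at 24 h, with 0.32. That earlier call was lost without any of 3 single arrays (adjusted p from 0.0534 to 0.0915) and with the average of its probe sets (0.13, 0.425). At 24 h STAT6 fell by 0.92 ± 0.14, and PTPN11 and SOCS5, a phosphatase and a suppressor of cytokine signalling, rose by 0.32 ± 0.08 and 0.45 ± 0.12. Averaged over probe sets, STAT3 had 0.30 at 72 h (adjusted p = 0.0621) and PTPN11 0.16 at 24 h (0.489), and neither passed. PTPN11 was also lost in a fit of the compared groups alone (0.0527), and JAK1 without a filter (0.0542). Leaving out single arrays ended the calls of JAK1 (5 of 12 arrays, adjusted p from 0.0585 to 0.137) and SOCS5 (3 of 12, from 0.0522 to 0.0719).

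Among 19 further NF-kB targets and cytokines, 1 rose (5.26%, beside 9.44% of all genes) and 4 fell (21.1%, beside 21.6%) at 24 h. At 72 h 4 rose (21.1%, beside 17.1%) and 1 fell (5.26%, beside 14.9%). PLAU, the urokinase gene, rose by 1.69 ± 0.25 or 3.23-fold at 72 h, and TNFSF10, a ligand that triggers apoptosis, rose by 1.42 ± 0.11 or 2.67-fold. At 24 h their changes were 0.37 and 0.59. IL15, a lymphocyte cytokine, fell by 0.78 ± 0.11 at 72 h. IER3, an early response gene, fell by 0.84 ± 0.14 at 24 h. CFLAR, an inhibitor of death receptor signalling, and CCL28, a mucosal chemokine, fell by 1.21 ± 0.21 and 0.73 ± 0.12 at 24 h, but with the mean of their probe sets the changes were 0.10 and 0.05 and did not pass (adjusted p = 0.583 and 0.745).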

How the data were processed

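The deposited values are log2 levels, one for every probe set on every array. The submitters' processing notes name GCRMA as the method the authors used; its version and settings are not given in the sources used here. GCRMA models background by probe sequence and then applies quantile normalization and summarisation, so low values sit on a floor and a shift of all RNA is hard to see. Arrays have no read depth, and their number limits the precision. Of 54675 probe sets 62 controls were left out. Probe sets were named by the platform annotation, updated through RefSeq (GRCh38.p14), and each gene was its brightest probe set with 1 symbol.

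Genes exceeding 4 in 3 or more arrays (10699 genes) entered a model of the 4 group means in limma 3.58.1 (R 4.3.3, data.table version 1.17.8; lmFit and eBayes, 8 residual and 3.31 prior degrees of freedom), with Benjamini-Hochberg adjustment over all genes and calls at an adjusted p below 0.05. The same fit was run over probe sets, and the script was tested on simulated data. Plots used matplotlib 3.10.9 and Python 3.11.15. Alternatives changed the probe set of a gene, the filter, the scaling, the arrays in the fit, the variance prior and the replicate block. Same-numbered arrays shared their deviations from the group means at 24 h (r from 0.32 to 0.45 in the 3 pairs), so the labels' numbers were taken as pairing there. At 72 h r was 0.07 to 0.27 and they were not. The main fit has no replicate block, so its counts and adjusted p-values at 24 h leave this pairing out. Fits with the block are given as alternatives. Members, gene lists and tests were chosen with earlier results of these data known. Array values are given for members that passed in Ota against control, and up to 3 genes of each further list and time by smallest p are named. A gene named at 1 time can therefore have changed at the other time as well.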

Additional observations from a re-analysis of the deposited data

Results flagged for a closer look

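For 6 members the response to Ota differed between the times by limma's test of the difference (response at 72 h minus response at 24 h, log2, 3 arrays per group). It was 1.49 for IL1B, 1.40 for TNFAIP8, 1.10 for NFKBIA and 0.66 for TNFAIP2. It was -0.68 for CXCL3 and -0.50 for IL6ST. The positive differences are 11.8% of the members tested, beside 15.5% of all genes, and the negative ones 5.88%, beside 5.79%. Leaving out single arrays ended the calls of CXCL3 (9 arrays) and IL6ST (6 arrays). Adjusted p-values are given with the comparison above.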

How the results depend on the processing

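Of the 11 calls at 72 h, 8 (NFKBIA, TNFAIP2, TNFAIP8, ICAM1, CXCL3, CX3CL1, IL1B and SOD2) kept direction and side of the threshold in every alternative with 1 value per gene that tested them. Of the 6 at 24 h none did. Causes were not tested. The fit of each probe set was compared by counts only, and in it the second probe set of CX3CL1 did not pass at 72 h (adjusted p = 0.054). At 24 h, against 2 rises and 4 falls, there was 1 rise with the mean of probe sets. Without a filter, where more genes were adjusted for, there were 1 rise and 0 falls. There was 1 fall with probe sets that carry no suffix, or with a common median (2.94%, beside 15.9% of all genes). With only the compared groups there were 2 falls. The replicate block gave 7 falls in the full fit (20.6%, beside 24.2% of all genes). It also gave 7 in the compared groups alone, a fit chosen after seeing the data. At 72 h falls were 0 with the filter at 6, which drops CXCL3, and 2 with quantile normalization repeated (5.88%, beside 18% of all genes). Rises were 8 with quantile normalization repeated (23.5%, beside 15.2%) or a common median (23.5%, beside 16.5%). They were 12 with the replicate block (35.3%, beside 19.4%). NFKB1, TNFAIP3 and TNFRSF12A missed the threshold without a filter and with only the compared groups, a fit that added IL1R1. For the difference, falls were 1 with the mean of probe sets, no filter, the filter at 6, a variance trend or each probe set tested. Its rises were 2 with no-suffix probe sets and 10 with the replicate block (29.4%, beside 18.8% of all genes). Where a count of members has no share beside it here, the share over all genes in that fit is not given. The replicate block gave 10 rises (29.4%, beside 24.7% of all genes) and 10 falls (29.4%, beside 25.9%) in control cells over time. In Ota cells over time it gave 16 rises (47.1%, beside 25.2%) and 2 falls (5.88%, beside 12.1%). Falls there were also 2 with the mean of probe sets, quantile normalization repeated (beside 13% of all genes) or a trend, and 4 with a common median (11.8%, beside 18.7%). Paired fits at 72 h, where the numbers were not taken as pairing, added CCL2 and IL1R1 to the rises. Leaving out 1 array gave 1 to 3 rises and 1 to 4 falls at 24 h, 7 to 10 and 1 to 2 at 72 h, 4 to 7 and 0 to 2 for the difference, 5 to 7 and 4 to 7 in control cells and 8 to 15 and 1 to 2 in Ota cells over time. Over all genes these fits gave 702 to 1151 and 1798 to 2266 at 24 h, and 1271 to 1969 and 1142 to 1695 at 72 h. They gave 1133 to 1791 and 418 to 714 for the difference, 2097 to 2515 and 2180 to 2597 in control cells, and 1703 to 2527 and 714 to 1138 in Ota cells. Signs turned with the mean of probe sets for CCL28 (0.0523), CFLAR (0.10) and OSMR (-0.36) at 24 h and REL in Ota cells over time (0.32), and with no-suffix probe sets for CFLAR (0.0257 at 24 h). Genes called higher and lower over all genes went from 1659 and 619 to 1164 and 1184 for the difference, and from 2378 and 1069 to 1668 and 2001 in Ota cells over time, with a common median; with quantile normalization repeated they were 1397 and 843, and 1944 and 1395.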
